A study of Mus musculus with 9 samples.

Results

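Bone marrow-derived dendritic cells (BMDCs) that had received exosomes of NIH-3T3 cells, a non-cancerous mouse fibroblast line, were compared with BMDCs that had received none. The comparison covers 6 of the 9 RNA-seq libraries of the series, namely NE_1 to NE_3 (NE, exosomes of non-cancerous cells) against CTR_1 to CTR_3 (CTR, untreated), over every gene with enough reads. All 9 libraries came from wildtype C57BL/6 mouse bone marrow cultured with GM-CSF at 20 ng/ml, for 6 days per the labels, and exosome treatment lasted 24 hours. The remaining group, TDE, received exosomes of tumor cells and entered the fits only to estimate the spread and for the comparisons of TDE with NE. The exosome dose of these libraries was not given in the sources used here. For exosomes without a stated line the study's methods name TC-1 or MC38 tumor cells, without saying which gave the TDE of these libraries. NE rests on 1 donor cell line, and GM-CSF cultures are mixed cultures of myeloid cells. The libraries were not stated to come from separate mice or cultures, so the p-values measure only the spread between these libraries, which may be technical.

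Exosomes are small vesicles that carry lipids, proteins and RNA from one cell to another, and dendritic cells take them up. In the study, antibodies against the scavenger receptors Msr1 and CD36 did not block uptake of tumor exosomes by dendritic cells. Whether vesicles of a non-cancerous cell act on dendritic cells is the question that makes NE the comparison group for tumor exosomes. Hypoxia-inducible factor (HIF) turns on genes of glycolysis and low-oxygen survival and is destroyed in oxygen after prolyl hydroxylases mark it. Sterol regulatory element-binding protein 2 (SREBP2) turns on cholesterol synthesis when membranes are poor in sterol. Interferon-stimulated genes answer type I interferon, and NF-kB drives the inflammatory response of maturing dendritic cells.

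Between 17469782 and 21092943 reads per library lay on genes, so 3 reads, the level below which a gene was regarded as undetected, corresponded to 0.142 to 0.172 CPM, the reads scaled to a common library size. These floors leave out the library factors that the other CPM values use, and the factor of CTR_1 was 0.751. The floor of CTR_1 is therefore higher on the scale of the printed levels. CTR_1 stood apart. Across genes, its log2 CPM correlated with those of the other libraries at 0.847 to 0.911, whereas the lowest value among the other 8 libraries was 0.954, and NE correlated with CTR_2 and CTR_3 at 0.983 to 0.994, which is the range found within NE (0.984 to 0.994). Its levels ran with gene length: with genes in 5 equal groups by length, in the group of the shortest genes (median 957 bases) its median deviation from the other libraries was 1.14 on the log2 scale, and in that of the longest (median 5848 bases) it was -0.80. NE_3 leaned the same way to a lesser degree, from 0.28 to -0.24, and CTR_2 from 0.14 to -0.15. The median over genes of the SD of log2 CPM was 0.0874 in TDE, which lent its smaller spread to the fits, and 0.176 in NE. It was 0.470 in the 3 CTR libraries and 0.133 in CTR_2 and CTR_3. The results are therefore given with and without CTR_1, and a single gene difference that stands alone is the one without it where the sentence says so.

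**Figure D1:**
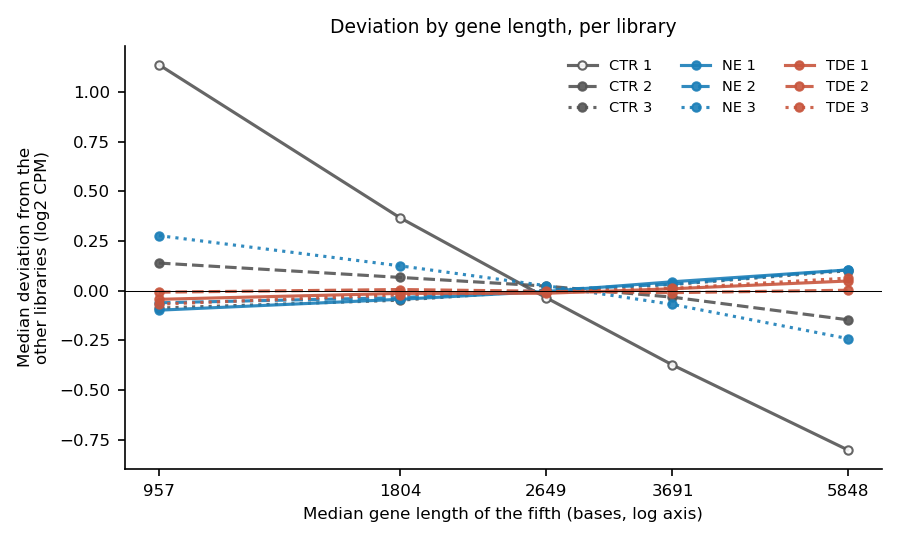
Median deviation of each library from the mean of the other libraries (log2 CPM, CTR_1 never being among the others) in 5 groups of about 3010 genes, plotted against the median gene length of the group in bases on a log axis. CTR_1 (open circles) runs from 1.14 to -0.80, while the TDE libraries stay near 0.

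The cultures expressed dendritic cell genes together with genes of other myeloid cells. Over the 6 libraries, the integrin gene Itgax (CD11c) ranged from 138 to 178 CPM, the dendritic cell transcription factor Zbtb46 from 15.7 to 19.9 CPM and the class II gene H2-Ab1 from 563 to 1583 CPM. Cd209a was at or under the floor of 3 reads in each. The macrophage gene Adgre1 (F4/80) was at 206 to 487 CPM, the neutrophil gene Ly6g at 28.1 to 72.8 CPM, and the T cell gene Cd3e at 0 to 0.271 CPM. No member of the cell type lists was called in either fit. Without CTR_1 the median log2 difference, NE minus CTR, was -0.08 for 20 dendritic cell genes, 0.05 for 21 macrophage genes and 0.10 for 20 neutrophil genes, against 0.01 for all genes. With CTR_1 these medians were -0.08, -0.15 and -0.30. In bulk RNA, fewer cells of a type and less RNA per cell cannot be told apart.

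NE-treated and untreated BMDCs were hard to tell apart by expression. In the fit to all 9 libraries, edgeR's quasi-likelihood test called 0 of 15028 genes at an adjusted p under 0.05 (0% in either direction), with 487 genes (3.24%) at an unadjusted p under 0.05, of which 425 (2.83%) were lower in NE and 62 (0.413%) were higher. The number passing unadjusted was 166 without NE_1, 179 without NE_2, 355 without NE_3, 1539 without CTR_2 and 3210 without CTR_3, and 3268 with voom and sample quality weights. DESeq2 called 3 genes on the same libraries. Limma voom with sample quality weights called 18, of which 16 were lower in NE. It gave CTR_1 a weight of 0.0269, NE_3 one of 0.280 and CTR_3 one of 0.575. CTR_2, NE_1 and NE_2 had weights of 2.48, 2.42 and 2.66, so these calls rest mostly on those libraries and on TDE for the spread. Without CTR_1, edgeR called 3 of 15301 genes (0.0196%), all of them lower in NE, and 404 genes (2.64%) passed unadjusted, 258 lower (1.69%) and 146 higher (0.954%). With the TDE libraries left out as well, so that the spread came from 5 libraries, it called none of the 14855 genes it then tested, with 224 at an unadjusted p under 0.05.

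The size of shift that the libraries could show bounds these counts. With 3 NE against 3 CTR libraries, the 95% interval of a gene's log2 difference reached a median of 0.668 to either side, that is, a 1.59-fold difference, and it lay wholly within 1 log2 unit of 0 for 7645 genes (50.9%). To pass the adjusted threshold with no other gene passing, a gene of median precision would have needed a log2 difference of 3.16 (8.91-fold), and there was no gene for which a difference of 1 log2 unit would have passed on its own. Without CTR_1 the median half-width was 0.344 (1.27-fold), 12213 genes (80.0%) had an interval within 1 log2 unit, and the difference needed was 1.55 (2.94-fold). Genes of at least 50 CPM were measured best, with a median half-width of 0.226 and a needed difference of 1.02 (2.03-fold). At such genes a difference of 1 log2 unit would have passed for 1941 (48.3%), whereas under 5 CPM it would have passed for 0 of 4950 genes with an interval.

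**Figure D2:**
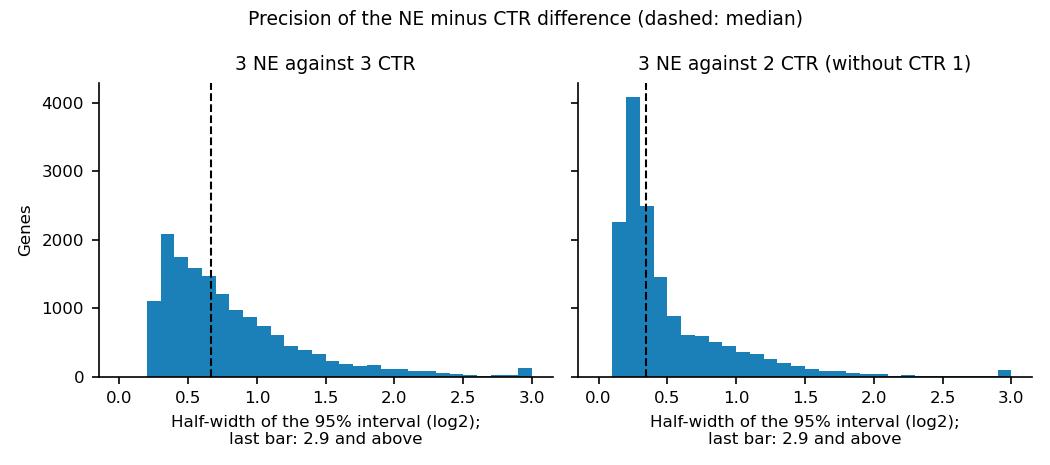
Number of genes by the half-width of the 95% interval of the NE minus CTR difference (log2, bins of 0.1), with all 3 CTR libraries on the left and without CTR_1 on the right. The dashed line is the median, at 0.668 and 0.344, and the last bar gathers half-widths of 2.9 and above.

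The 3 genes called without CTR_1 were Arg1, Ak4 and Egln3, and each was lower in NE than in untreated BMDCs and far higher in TDE. Egln3 is a HIF prolyl hydroxylase that is itself induced by HIF, and Ak4 is a mitochondrial adenylate kinase. Their promoters are shown beside that of Bnip3, a mitophagy gene of the HIF list, because, among the lists compared, the HIF list had the largest share of members below CTR_2 and CTR_3 in every NE library. Each line gives the 250 bases before the RefSeq start site, 5′ to 3′ on the gene's strand, from the RefSeq promoter table of build GRCm38.p6, with the core of the hypoxia response element in capitals (ACGTG or GCGTG on either strand, so also CACGT or CACGC).
Egln3 (chr12:54203875-54204124, minus strand): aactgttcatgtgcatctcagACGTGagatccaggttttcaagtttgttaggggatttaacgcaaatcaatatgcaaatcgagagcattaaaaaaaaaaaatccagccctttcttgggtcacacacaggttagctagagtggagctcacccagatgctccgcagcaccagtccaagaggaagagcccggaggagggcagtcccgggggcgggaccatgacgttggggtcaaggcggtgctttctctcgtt
Ak4, first of 4 start sites (chr4:101419039-101419288, plus strand): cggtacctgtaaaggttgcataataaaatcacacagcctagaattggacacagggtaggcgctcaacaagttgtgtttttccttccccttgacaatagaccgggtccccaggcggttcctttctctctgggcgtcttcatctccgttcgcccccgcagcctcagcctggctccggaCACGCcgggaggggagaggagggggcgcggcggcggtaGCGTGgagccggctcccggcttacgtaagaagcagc
Bnip3 (chr7:138909507-138909756, minus strand): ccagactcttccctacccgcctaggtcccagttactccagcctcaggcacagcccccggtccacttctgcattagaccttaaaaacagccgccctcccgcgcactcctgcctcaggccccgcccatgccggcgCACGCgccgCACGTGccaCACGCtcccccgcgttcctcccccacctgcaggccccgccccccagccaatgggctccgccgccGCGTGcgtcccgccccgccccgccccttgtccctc
Egln3 holds 1 match, Ak4 holds 2 and Bnip3 holds 5, of which 2 are the same palindrome read once on each strand, so that its line shows 4 stretches in capitals. The core is short, and 12679 of 32851 such windows (38.6%) hold it, or 41.5% of genes. Of the 27 HIF list genes with a promoter in the table, 24 hold at least 1. A match is a description of the letters and not evidence of a bound site, and Arg1 had no entry.

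Arginase 1, which cleaves arginine to ornithine and urea, is encoded by Arg1 (ENSMUSG00000019987, chr10:24915221-24927484, minus strand, GRCm38). In CTR_1, CTR_2 and CTR_3 it stood at 258, 479 and 462 CPM, in NE at 209, 214 and 216 CPM, and in TDE at 948, 988 and 943 CPM. The 3 NE libraries lay below every CTR library, and CTR_1 lay nearer to NE than to CTR_2 and CTR_3. Without CTR_1, Arg1 fell by 1.15 on the log2 scale in NE (SE 0.065), from 470 ± 12.0 CPM to 213 ± 3.62 CPM (SD, n = 2 and 3), a 2.21-fold difference (edgeR adjusted p = 0.000446). With CTR_1 the difference was -0.91 (SE 0.22) and the adjusted p in edgeR was 0.659.

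Ak4 (ENSMUSG00000028527, chr4:101419277-101466995, plus strand) was measured at 5.58, 11.9 and 13.6 CPM in CTR and at 4.72, 4.93 and 4.67 CPM in NE, while TDE stood at 69.5, 70.0 and 64.4 CPM. The groups did not overlap, and again CTR_1 was the CTR library nearest to NE. Without CTR_1, Ak4 fell by 1.41 on the log2 scale (SE 0.100), or 2.66-fold, with an edgeR adjusted p of 0.00152. The log2 difference over all 3 CTR libraries was -1.12, which edgeR did not call.

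Egln3 (ENSMUSG00000035105, chr12:54178981-54203860, minus strand) was at 18.6, 35.7 and 28.3 CPM in CTR and at 14.1, 15.3 and 14.9 CPM in NE, with 297, 333 and 298 CPM in TDE. All NE values were below all CTR values. Without CTR_1, Egln3 fell by 1.12 on the log2 scale (SE 0.113), a 2.17-fold difference (edgeR adjusted p = 0.0203), and with CTR_1 the difference was -0.90. Per kilobase of transcript, the mean level over NE and CTR was 207 CPM for Arg1, 7.94 CPM for Egln3 and 1.73 CPM for Ak4, so Arg1 was the most abundant of the 3. No exon of these genes overlaps an exon of another gene in GENCODE vM21.

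How firmly these calls stand depends on the libraries in the fit. Arg1 and Ak4 were called with each of the 5 other NE and CTR libraries left out in turn, beside CTR_1. Egln3 was not called without CTR_2 (log2 difference -0.94), without NE_1 (-1.08) or without NE_2 (-1.14), and without NE_3 the count of calls went from 3 to 10. With the spread estimated from the NE and CTR libraries alone, the edgeR adjusted p-values were 0.0906 for Arg1, 0.201 for Ak4 and 0.408 for Egln3, at log2 differences of -1.15, -1.42 and -1.12.

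**Figure D3:**
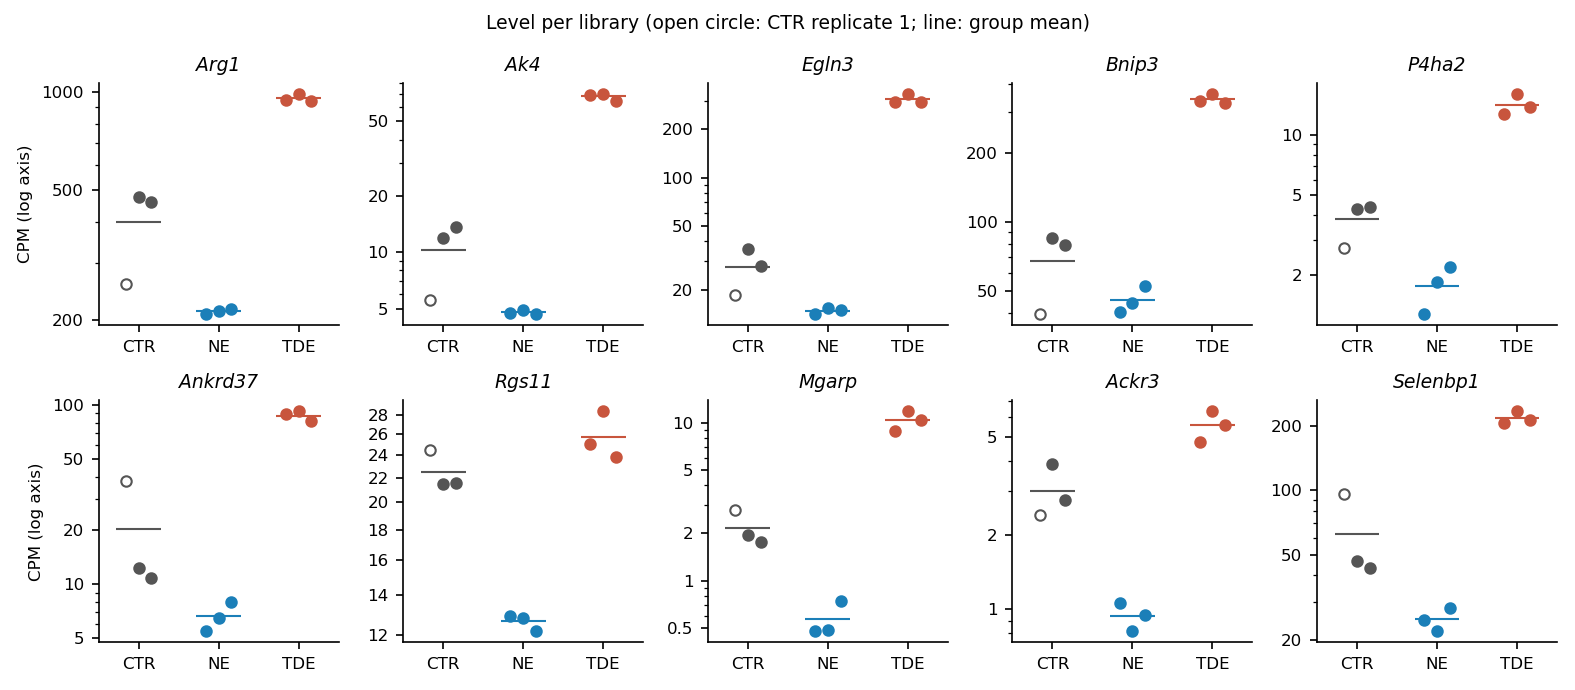
Level of 10 genes in each library (CPM, log axis with its own range in each panel), with a line at the group mean and CTR_1 as an open circle. For Arg1, Ak4 and Egln3 the NE libraries lie below all CTR libraries and TDE lies above both, and for Bnip3 CTR_1 (39.5 CPM) lies below NE_1 (40.3 CPM).

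Genes of the HIF program were mostly lower in NE, by a small amount at the median and by up to 1.29 on the log2 scale without CTR_1. Of 31 listed symbols, 29 were found in the table under that symbol and tested, the exceptions being Aldoa and Ero1a, of which the latter is listed there as Ero1l. The median log2 difference of the list was -0.26 with CTR_1 and -0.25 without it, against 0.00 and 0.01 for all genes. Without CTR_1, 18 of the 29 members had every NE library below both CTR libraries and 0 had every NE library above them, where 6.88% of all genes were in the first position and 6.37% in the second. With CTR_1, 11 members lay below all 3 CTR libraries and 0 above, against 3.67% and 4.05% of all genes. Egln3 was the 1 member called. The members' summed level was 8962, 6850 and 6637 CPM in CTR and 5546, 5526 and 6023 CPM in NE, so the sum was lower in each NE library than in each CTR library.

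The members P4ha2, Bnip3 and Ankrd37 are given in full and were chosen after their values were seen. The procollagen prolyl hydroxylase gene P4ha2 was at 2.73, 4.29 and 4.39 CPM in CTR and at 1.27, 1.84 and 2.19 CPM in NE, with a log2 difference of -1.10 with CTR_1 and -1.29 without it. Bnip3 was at 39.5, 84.8 and 78.8 CPM in CTR and at 40.3, 44.1 and 52.4 CPM in NE. CTR_1 thus lay among the NE libraries for Bnip3, and the log2 difference was -0.84 without CTR_1 (95% interval -1.10 to -0.59, edgeR adjusted p = 0.0869) and -0.57 with it. Ankrd37, an ankyrin repeat gene, was at 37.9, 12.3 and 10.9 CPM in CTR and at 5.47, 6.51 and 8.01 CPM in NE. The NE libraries lay below all CTR libraries, and part of the distance came from CTR_1: the difference was -1.61 with it and -0.80 without it. Exons of Bnip3 overlap those of an antisense transcript by 504 bases and exons of Ankrd37 overlap opposite-strand genes by 406 bases, and whether counting used the strand was not given in the sources used here.

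Several glycolysis genes showed smaller differences of the same sign. The glycolytic enzyme genes Pgk1, Tpi1, Gapdh and Eno1 differed by -0.42, -0.26, -0.25 and -0.24 without CTR_1, and for each of the 4 every NE library lay below every CTR library. Pgk1, as an example, was at 947, 865 and 829 CPM in CTR and at 583, 595 and 725 CPM in NE. For Ldha (lactate dehydrogenase A), Pfkfb3 and Hk2 (hexokinase 2) the differences were -0.17, -0.16 and -0.16. The glucose transporter gene Slc2a1 and the angiogenic factor gene Vegfa differed by -0.26 and -0.29, and the prolyl hydroxylase gene Egln1 by -0.33. Of 618 entries that the data table lists under the KEGG map of glycolysis, 72 were tested and 0 were called. Members of the HIF list were not taken out of the map. Among the 72, 19 had every NE library below both CTR_2 and CTR_3 and 2 above, while with CTR_1 the numbers were 14 and 0. Of all genes, 6.88% lay below and 6.37% above in the first comparison, and 3.67% and 4.05% in the second. The median of the map was -0.28 with CTR_1 and -0.08 without it, and 26 of the 72 differences were above 0 without CTR_1.

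The genes of the HIF subunits themselves did not share the pattern. Hif1a, which encodes the oxygen-sensitive subunit of HIF-1, differed by 0.03 without CTR_1 (95% interval -0.20 to 0.25) and Epas1, which encodes that of HIF-2, by 0.13 (-0.23 to 0.49). The classical target gene Car9 (carbonic anhydrase 9), at 2.52 to 4.92 CPM, differed by 0.09 (-0.48 to 0.67), and Bnip3l by -0.03 (-0.19 to 0.12). The list was first written for these data after an earlier look at them, so its direction is not independent evidence. Its median kept its sign in 14 of 14 alternative fits without CTR_1, from -0.29 to -0.21, and in 15 of 15 with it, from -0.28 to -0.13.

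**Figure D4:**
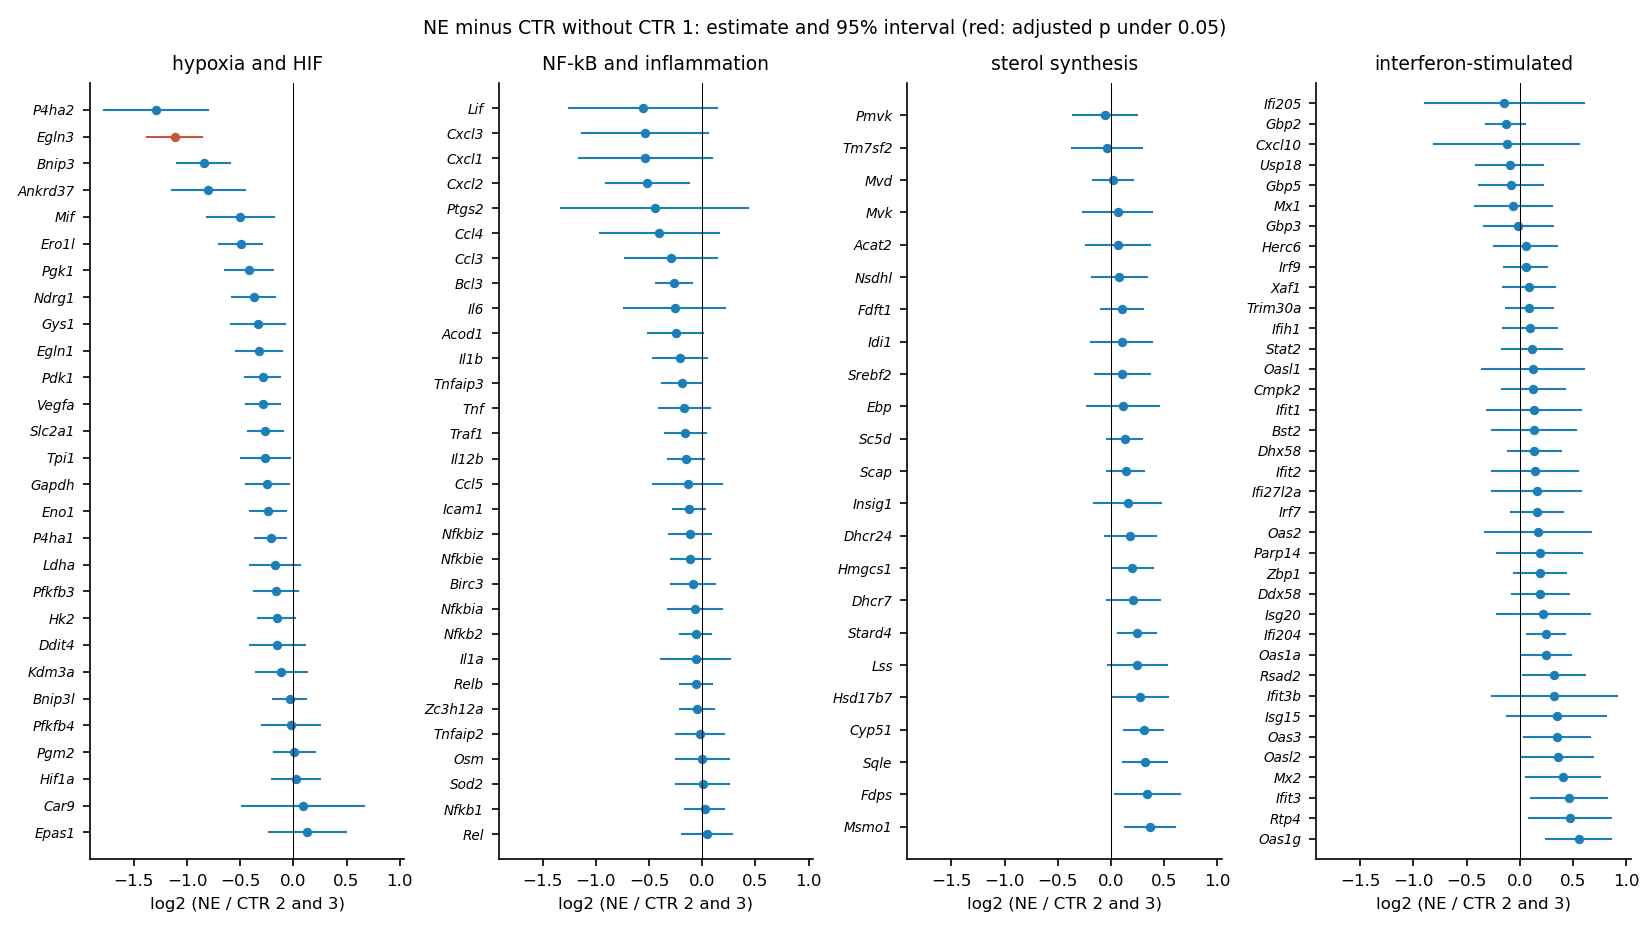
Log2 difference, NE minus CTR without CTR_1, with its 95% interval for tested members with a mean of at least 1 CPM in 4 lists, a few of which are not shown. Egln3 (red) is the 1 called gene shown, most HIF members and most NF-kB members lie to the left of 0, and most sterol and interferon members lie to its right.

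DESeq2, run on the same 9 libraries, called Rgs11, Mgarp and Ackr3, and all 3 were lower in each NE library than in each CTR library. Rgs11, a regulator of G protein signaling, stood at 24.5, 21.5 and 21.5 CPM in CTR and at 13.0, 12.9 and 12.2 CPM in NE (chr17:26202951-26211324, plus strand). Its log2 difference was -0.83 (95% interval -1.12 to -0.54) with CTR_1 and -0.77 without it, the adjusted p was 0.00081 in DESeq2 and 0.659 in edgeR, and without CTR_1 edgeR gave 0.0869. In TDE it stood at 25, 28.4 and 23.8 CPM, beside the CTR level. Its exons overlap 138 bases of Arhgdig on the other strand. The mitochondrial protein gene Mgarp was at 2.79, 1.94 and 1.77 CPM in CTR and at 0.478, 0.488 and 0.746 CPM in NE, a log2 difference of -1.90, or -1.68 without CTR_1. Ackr3, which encodes the atypical chemokine receptor CXCR7, a scavenger of CXCL12, was at 2.41, 3.88 and 2.77 CPM in CTR and at 1.06, 0.813 and 0.945 CPM in NE, a log2 difference of -1.68, or -1.82 without CTR_1. Both were above the floor of 3 reads in all 6 libraries, at low levels.

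Other tools called more genes. Voom with sample quality weights, on 9 libraries, called Arg1, Ak4, Rgs11 and Ackr3 and, from the HIF list, Egln3, Bnip3, Ankrd37, Mif, Ndrg1 and Pgk1, all lower in NE. It also called Selenbp1, a selenium-binding protein gene, Pfkl and Pgm1, which encode a phosphofructokinase subunit and a phosphoglucomutase, and the transcription factor gene Cebpb, again lower in NE. Selenbp1 was at 96.5, 46.6 and 43.4 CPM in CTR and at 24.8, 21.9 and 28.2 CPM in NE. The groups did not overlap, and the log2 difference was -1.32 with CTR_1 and -0.85 without it (edgeR adjusted p = 0.659 and 0.0869). The 2 genes that voom called higher were Slfn5, an interferon-inducible gene, and Gm14296. Without CTR_1, DESeq2 called 16 genes, 15 of them lower in NE, and 5 were of the HIF list, namely Egln3, Bnip3, Ankrd37, P4ha2 and Ero1l, the gene of an oxidase of the endoplasmic reticulum.

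Of 15028 genes tested, 551 (3.67%) had every NE library below every CTR library and 608 (4.05%) above, without a limit on p. At an unadjusted p under 0.05 in edgeR, 425 (2.83%) were lower and 62 (0.413%) higher, so the lean to lower genes appears with the p limit. Among genes of at least 5 CPM whose 3 NE and 3 CTR libraries did not overlap and whose unadjusted p was under 0.05, 95 were lower in NE and 30 were higher, and none was called by edgeR. In 7 of the 8 with the lowest log2 difference, CTR_1 was the highest of the 9 libraries or far above the other CTR libraries. The ephrin receptor gene Epha5 read 62.1 CPM in CTR_1, 0.993 and 1.87 CPM in CTR_2 and CTR_3, and 0.425, 0.0542 and 0 CPM in NE, and its log2 difference was -7.04 with CTR_1 and -3.13 without it. The lipid transfer protein gene Stard10 (25, 3.97 and 3.83 CPM in CTR against 3.13 to 3.68 CPM in NE), the antisense transcript A530040E14Rik and the antisense transcript Gm43118, which lies wholly within an exon of Pitpnb, shared this pattern. Without CTR_1 their log2 differences went from -1.64, -1.94 and -2.35 to -0.17, -0.28 and -0.88. The processed pseudogene Gm5559 had log2 differences of -1.92 and -0.91 with and without CTR_1, and the HIF-inducible mitochondrial gene Fam162a, at 69.2, 18.0 and 15.6 CPM in CTR and 9.50, 10.8 and 13.3 CPM in NE, had -1.61 and -0.58. Exons of Fam162a overlap 168 bases of Wdr5b on the other strand.

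The mitochondrial gene mt-Co2 did not depend on CTR_1. It was at 118, 102 and 94.3 CPM in CTR, at 50.5, 27.3 and 14.8 CPM in NE and at 163, 125 and 112 CPM in TDE, a log2 difference of -1.76 with CTR_1 and -1.67 without it. The neighbouring mt-Co1 stood at 1264 CPM in CTR_1, at 11654 and 11843 CPM in CTR_2 and CTR_3 and at 12425, 12459 and 12297 CPM in NE. The median of the 12 tested mitochondrially encoded genes was 0.06 without CTR_1, so they were not lower as a group, but they were split. Without CTR_1, 4 had every NE library above both CTR libraries and 2 below, against 6.37% and 6.88% of all genes. The lowest difference in the list belonged to another member than mt-Co2, at -1.87 without CTR_1 and -3.69 with it. Copies of mitochondrial genes in the nuclear genome can take reads from them, and the counts of mt-Co2 are therefore uncertain.

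The genes higher in NE were led by Emp1, a membrane protein gene of the tetraspan type. It stood at 22.8, 51.5 and 50.6 CPM in CTR, at 76.8, 68.1 and 72.0 CPM in NE and at 3.1, 2.78 and 1.99 CPM in TDE. The NE libraries were above all CTR libraries, with a log2 difference of 0.80 with CTR_1 and 0.50 without it (95% interval 0.23 to 0.77). Igf2bp2, an mRNA-binding protein gene, was at 5.89, 4.06 and 3.88 CPM in CTR and 6.37, 6.18 and 7.36 CPM in NE, differences of 0.53 and 0.74. Clspn, a replication checkpoint gene, Cdh1 (E-cadherin) and the collagenase gene Mmp13 differed by 0.44, 0.44 and 0.33 without CTR_1. The interferon-stimulated genes Oasl2 and Rsad2 were also among the 8, with the uncharacterized transcript B230303A05Rik. None of these was called.

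Cholesterol synthesis stood slightly higher in NE. The sterol response element is shown for Hmgcs1, whose product makes the precursor of mevalonate, since it was the 1 gene of the 18 list members in the promoter table whose window held the letters TCACNCCAC on either strand. The letters are in 346 of all windows (1.05%), and they are in capitals.
Hmgcs1 (chr13:119690101-119690350, plus strand): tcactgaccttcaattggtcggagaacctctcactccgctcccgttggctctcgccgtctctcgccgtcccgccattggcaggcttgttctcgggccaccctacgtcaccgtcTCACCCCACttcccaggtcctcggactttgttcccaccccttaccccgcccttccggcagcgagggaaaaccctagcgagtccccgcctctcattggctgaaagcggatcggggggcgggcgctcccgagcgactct
Of 26 listed genes 25 were tested and 0 were called. The median log2 difference was 0.30 with CTR_1 and 0.16 without it, and 11 members had every NE library above both CTR_2 and CTR_3 and 0 below, where 6.37% and 6.88% of all genes did. Cyp51, the sterol demethylase gene, was at 59.8, 68.3 and 66.4 CPM in CTR and at 81.5, 79.8 and 88.8 CPM in NE. The NE libraries stood above all CTR libraries, with a log2 difference of 0.36 with CTR_1 and 0.31 without it (95% interval 0.13 to 0.49). Squalene epoxidase (Sqle) followed, at 39.0, 43.2 and 45.3 CPM in CTR and 54.9, 50.5 and 60.9 CPM in NE, differences of 0.38 and 0.32. Without CTR_1, Hmgcs1 differed by 0.20 and Msmo1 and Fdps by 0.37 and 0.34. With CTR_1 Fdps turned to -0.56, since CTR_1 read 178 CPM against 44.2 to 73.1 CPM in the other 5 libraries. Srebf2, which encodes SREBP2, differed by 0.11 (-0.15 to 0.37). Exons of Cyp51, Hmgcs1 and Fdps overlap those of other genes by 166, 557 and 1124 bases, so reads there cannot be assigned with certainty.

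Fatty acid synthesis pointed the same way in fewer genes. The list of 18 tested genes had medians of 0.21 and 0.16 with and without CTR_1, with 5 members above all CTR libraries in NE and 0 below in either comparison, against 4.05% of all genes above with CTR_1 and 6.37% without it. They included the desaturase genes Fads2, Fads1 and Scd1 and the regulator gene Srebf1, with differences of 0.35, 0.17, 0.35 and 0.19 without CTR_1. Scd1 was at 18.5, 44.0 and 49.6 CPM in CTR and at 64.4, 60.3 and 55.0 CPM in NE. 0 genes of this list were called.

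Interferon-stimulated genes were slightly higher in NE as well. Ifit3, which encodes an antiviral protein of the IFIT family, is printed as an example of the interferon-stimulated response element, which is GAAA, any 2 bases and GAAA again on either strand (in capitals, here read from the other strand), and is in 978 of all windows (2.98%) and in those of 16 of the 29 list members in the promoter table.
Ifit3 (chr19:34583279-34583528, plus strand): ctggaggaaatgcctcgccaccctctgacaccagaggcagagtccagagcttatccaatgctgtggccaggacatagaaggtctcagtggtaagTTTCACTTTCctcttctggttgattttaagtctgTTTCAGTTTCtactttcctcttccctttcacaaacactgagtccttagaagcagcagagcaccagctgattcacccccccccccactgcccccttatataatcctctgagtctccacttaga
Its window holds 2 matches. Of 40 listed genes 39 were tested, with a median log2 difference of 0.22 with CTR_1 and 0.14 without it. Without CTR_1, 13 members had every NE library above both CTR libraries and 1 below, against 6.37% and 6.88% of all genes. Ifit3 was at 16.2, 9.75 and 9.03 CPM in CTR and at 15.8, 11.4 and 11.8 CPM in NE, a difference of 0.47 without CTR_1 and 0.16 with it. Rtp4, a chaperone gene of the same program, was at 11.8, 12.2 and 10.2 CPM in CTR and at 14.4, 15.3 and 17.1 CPM in NE, and its NE libraries lay above all CTR libraries, with differences of 0.45 and 0.47. Oasl2 differed by 0.54 and 0.36, and Rsad2 by 0.51 and 0.32, with and without CTR_1. The regulator gene Irf7 differed by 0.16 without CTR_1 (-0.09 to 0.41). 0 members were called in either fit.

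NF-kB and inflammatory genes stood on the lower side in NE. Of 33 listed genes 31 were tested and 0 were called, the median log2 difference was -0.17 with CTR_1 and -0.15 without it, and 13 members lay below both CTR_2 and CTR_3 in every NE library and 0 above, against 6.88% and 6.37% of all genes. The chemokine gene Cxcl2 was at 17.1, 18.4 and 17.9 CPM in CTR and at 12.6, 10.1 and 15.3 CPM in NE, a difference of -0.49 with CTR_1 and -0.52 without it. Bcl3, a nuclear cofactor of NF-kB, was at 61.0, 42.3 and 40.8 CPM in CTR and at 33.4, 34.2 and 36.0 CPM in NE, differences of -0.48 and -0.27. Nos2, the inducible nitric oxide synthase gene, read 0.190, 1.54 and 1.56 CPM in CTR and 0.531, 0.0542 and 0.448 CPM in NE. NE_2 lay under the floor of 3 reads, and CTR_1 lay near it. DESeq2 called Nos2 without CTR_1 and edgeR did not. The cytokine genes Il1b, Tnf and Il6 differed by -0.21, -0.17 and -0.26 without CTR_1, with overlapping groups, and Il12b by -0.15 (-0.33 to 0.02).

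**Figure D5:**
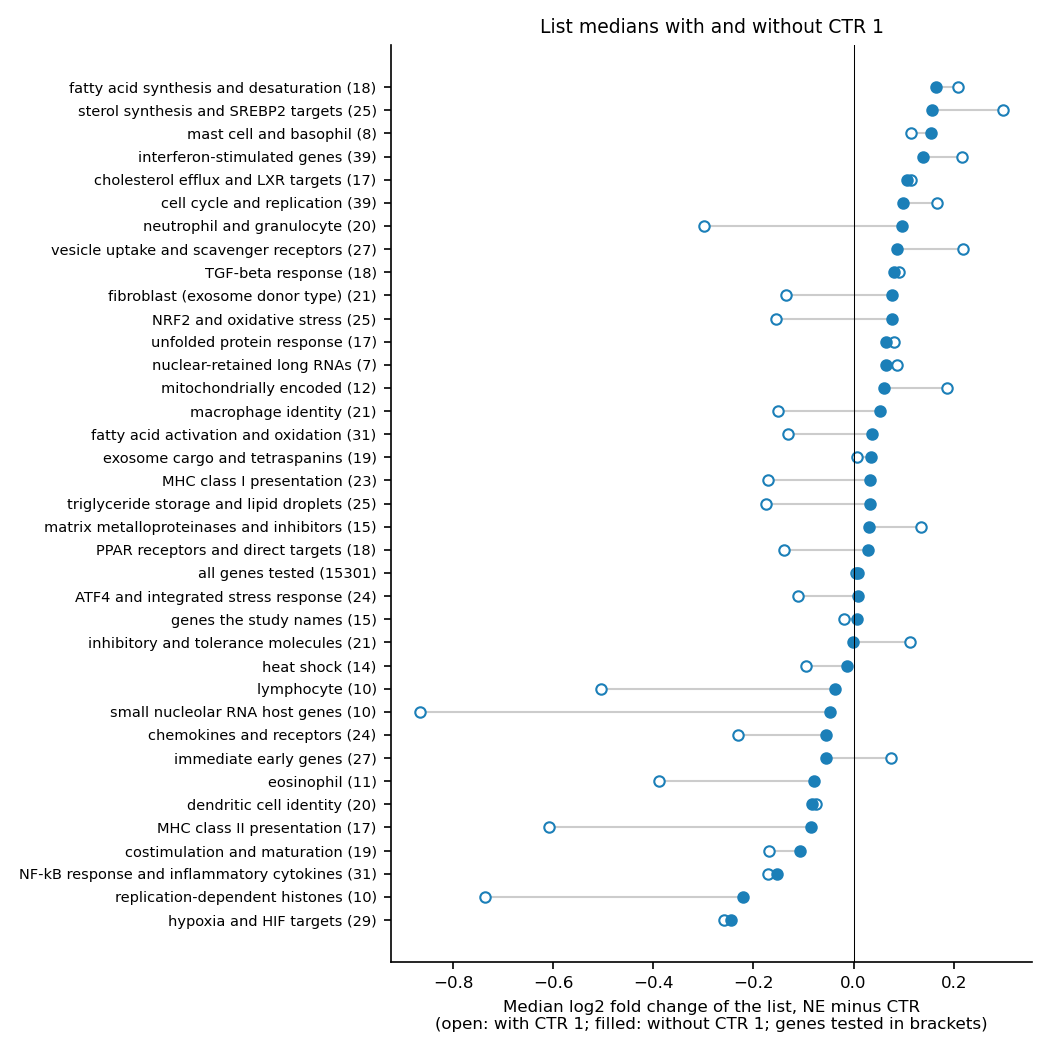
Median log2 difference, NE minus CTR, of each gene list with at least 5 tested genes (number tested without CTR_1 in brackets), with CTR_1 as an open circle and without it as a filled one. Without CTR_1 the list medians lie between -0.25 (HIF targets) and 0.16 (fatty acid synthesis), and the lists whose open circle lies furthest left are those that moved most when CTR_1 was left out.

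No gene of the antigen presentation and maturation lists was called. The costimulation list had medians of -0.17 and -0.11 with and without CTR_1 over 19 tested genes. Without CTR_1, 6 members lay below both CTR libraries in every NE library and 0 above, against 6.88% and 6.37% of all genes, and with CTR_1 the numbers were 3 and 0, against 3.67% and 4.05%. The B7 genes Cd80 and Cd86, which give T cells their second signal, differed by -0.07 (-0.34 to 0.19) and 0.04 (-0.18 to 0.25) without CTR_1, Ccr7, the receptor gene for homing to lymph nodes, by -0.11 (-0.36 to 0.15) and Cd40 by -0.20 (-0.54 to 0.15). For MHC class II, the median of 17 genes was -0.61 with CTR_1 and -0.08 without it. Cd74, the invariant chain gene, was at 8675 CPM in CTR_1, 2632 and 2057 CPM in CTR_2 and CTR_3, and 1978, 2038 and 2626 CPM in NE. For MHC class I, the median of 23 genes was -0.17 with CTR_1 and 0.03 without it. The same held far more strongly for 213 ribosome genes of the KEGG map, whose median was -1.15 with CTR_1 and 0.00 for the 219 tested without it.

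Vesicle uptake and scavenger receptor genes stood slightly higher in NE, with 27 tested genes, 0 called and medians of 0.22 and 0.09. In NE, 6 members lay above all 3 CTR libraries and 7 above CTR_2 and CTR_3, against 4.05% and 6.37% of all genes, and 0 below in either case. The scavenger receptor gene Cd36 was at 222, 477 and 481 CPM in CTR and at 577, 570 and 504 CPM in NE, a difference of 0.48 with CTR_1 and 0.20 without it (0.02 to 0.38). Msr1, the class A scavenger receptor gene, differed by 0.26 and 0.16, Clec7a (dectin-1) by 0.21 and 0.16 and the phosphatidylserine receptor gene Havcr2 (TIM-3) by 0.35 and 0.36. The caveolin gene Cav1 was at 26.2, 57.2 and 62.4 CPM in CTR and at 72.0, 68.4 and 68.9 CPM in NE.

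The tested genes among those that the study singles out in TDE-treated cells had medians near 0 in NE. Ppara, Ppargc1a, Acsl6, Cpt1a and Cpt2 were not tested. Of 20 genes 15 were tested, 0 were called, and the medians were -0.02 and 0.01 with and without CTR_1. The differences ran from -1.20 to 0.50 with CTR_1 and from -0.57 to 0.22 without it. The 95% interval lay within 1 log2 unit of 0 for 11 of the 15 with CTR_1 and for 14 without it. Cd274 (PD-L1) was at 75.8, 181 and 201 CPM in CTR and at 197, 198 and 178 CPM in NE, a difference of 0.32 with CTR_1 and 0.00 without it (95% interval -0.19 to 0.19). The inhibitory checkpoint gene Sirpa differed by 0.01 (-0.16 to 0.18) and Tgfb1 by -0.01 (-0.17 to 0.15) without CTR_1. These values are RNA, whereas the study measured PD-L1 and SIRPα protein by flow cytometry and secreted TGF-β by ELISA. Pparg, the nuclear receptor gene of fat storage, was at 13.1, 15.4 and 13.6 CPM in CTR and at 16.2, 16 and 18.3 CPM in NE, a difference of 0.22 without CTR_1 (-0.06 to 0.50). The study's text calls the PPARα and PPARγ expression of NE-treated cells different and gives no direction. The lipid droplet coat genes Plin2 and Plin3 differed by -0.04 and 0.04, and the triglyceride synthesis genes Dgat1 and Dgat2 by -0.17 and 0.05. Ppargc1a, listed at no more than 2 in any NE or CTR library, and Acsl6, listed at 0 in each, were not tested. The last 3 of the 20 were Ppara, which encodes a nuclear receptor of fatty acid oxidation, and the carnitine palmitoyltransferase genes Cpt1a and Cpt2, and their rows are written unlike most of the table. For Cpt1a the CTR entries are 1.02, 0.94 and 1.04, the NE entries 0, 1 and 0 and the TDE entries 2.06, 2.28 and 3.14. For Cpt2 the CTR entries are 1.04, 0.93 and 1.04 and the NE entries 0, 1 and 1. For Ppara the CTR entries are 0.87, 0.65 and 1.78 and the NE entries 0, 0 and 1. Fractions in every CTR and TDE library with whole numbers in every NE library are found in 9 of 57238 rows. Cpt1a and Cpt2 are the only 2 rows with fractions in every CTR library and a CTR mean within 0.005 of 1. That limit follows the values of these rows, so it describes them and is no test. Of 171714 group means in the table, 3 differ by more than 0.001 from the mean of their libraries, and they belong to Ppara and Cpt2, while the 1 mean written with more than 4 decimals belongs to Cpt1a. Whether these 3 rows hold counts could not be settled from the table and the reason was not tested, so no level, floor or difference is drawn from them. The lists of PPAR targets, lipid droplet genes and fatty acid oxidation genes had medians of 0.03, 0.03 and 0.04 without CTR_1 and of -0.14, -0.17 and -0.13 with it.

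Fibroblast genes, which the exosome donor cells express, were not raised as a group. Of 32 listed genes, 12 were under 1 CPM in every library and 21 were tested without CTR_1, with a median of 0.08 and 0 called, while with CTR_1 the median of 20 genes was -0.13. The collagen gene Col1a1 was at 2.47, 1.63 and 1.56 CPM in CTR and at 1.49, 1.63 and 1.94 CPM in NE, and Col3a1 was at 0.634, 0.768 and 0.807 CPM in CTR and at 0.902, 1.08 and 1.49 CPM in NE. Col3a1 was higher in each NE library at a level of few reads, with a difference of 0.56 without CTR_1 (-0.56 to 1.67). The list's summed level was 9354 to 16838 CPM in CTR and 11455 to 17346 CPM in NE, and most of it came from Fn1, Thbs1 and Vim, which myeloid cells express too. Genes of exosome cargo had a median of 0.03 without CTR_1 and 0.01 with it.

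TDE-treated BMDCs differed from NE at most of the genes that had been named by size or by call. TDE was compared with NE directly in the fit to 9 libraries, where 2095 genes (13.9%) were called, 1011 higher in TDE (6.73%) and 1084 lower (7.21%). The comparison shares the NE libraries with that of NE and CTR, so low NE values of a gene enter both. Of the 22 genes named by size or by call, 15 were called between TDE and NE, 11 of them higher in TDE. Arg1, Ak4 and Egln3 were higher in TDE than in NE by 2.17, 3.83 and 4.39 on the log2 scale (edgeR adjusted p = 0.000769, 0.0002 and 4.74e-05). Rgs11, Mgarp and Ackr3 were higher by 1.02, 4.16 and 2.56, and Emp1 was lower by 4.78 (edgeR adjusted p = 0.00145, 0.000106, 0.000598 and 0.000153). For Arg1, Ak4, Egln3, Mgarp and Ackr3 the TDE minus CTR difference was 1.26, 2.71, 3.49, 2.26 and 0.88, each called by edgeR, so the CTR mean lay between those of the exosome groups for these genes, while for Rgs11 TDE minus CTR was 0.19 and was not called.

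By list, 22 of 29 tested HIF genes were called higher in TDE than in NE and 1 lower, with a median of 1.75, and 19 of 31 NF-kB genes were higher and 1 lower, with a median of 1.25. Of 25 sterol genes, 0 were called higher and 19 lower in TDE, with a median of -1.04, and Cyp51 stood at 12.7, 13.8 and 13.6 CPM in TDE. Of 39 interferon-stimulated genes, 1 was called higher and 6 lower, with a median of -0.37. Over all genes tested, 6.73% were called higher in TDE and 7.21% lower, so the interferon counts stand far nearer to these shares than those of the other 3 lists. Cd274 was at 541, 501 and 540 CPM in TDE, 1.46 above NE (edgeR adjusted p = 0.0182), and Nos2, at most 1.56 CPM in NE and CTR, was at 366, 345 and 374 CPM in TDE. In Pparg the order was reversed, with 4.32, 3.38 and 4.28 CPM in TDE, 2.07 below NE (edgeR adjusted p = 0.000162).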

How the data were processed

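Total RNA was isolated with TRIzol, its quality was read on a Bioanalyzer, cDNA was made from oligo(dT) and random primers, and libraries were run on a NovaSeq. Per the labels, processing used TopHat2 2.1.1, DESeq2 1.24.0 and R 3.3.1. The counting program, the strand setting, the genome build and the annotation were not given in the sources used here. The authors deposited estimated counts without normalization, made after alignment with TopHat2, for 57238 entries in 9 libraries, with 5964 to 7750 genes per library at a fractional value. The deposited group means were used only to check the rows against their libraries, and the rows of Ppara, Cpt1a and Cpt2, which stand apart in that check, were too low to be tested.

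Estimated counts were rounded to whole numbers, filtered with filterByExpr on the 3 groups and normalized by TMM, and all CPM values use these factors, apart from the floors of 3 reads. In edgeR 4.0.16 (R 4.3.3), group means were fitted to 9 libraries, and to 8 without CTR_1. NE was compared with CTR, and TDE with NE and with CTR, by the quasi-likelihood F test with Benjamini-Hochberg adjustment over all genes tested and a threshold of 0.05. Standard errors came from the fitted weights and the moderated quasi-dispersion. The smallest difference that would pass was taken for a gene that passes alone, at 0.05 divided by the number of genes tested. Intervals cover the spread between libraries, and floors cover counting error only.

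The members of the comparison, the gene lists and the fit without CTR_1 were chosen with earlier results of these data known, and lists were described by counts and medians without a test. Genes were named if called in the fit to 9 libraries or by DESeq2, if among the 8 highest or 8 lowest log2 differences at an unadjusted p under 0.05, at least 5 CPM and no overlap, if called without CTR_1 under the same limits, if highest or lowest in a list at 1 CPM or more, or if the study names them. The others were chosen after their values were seen, and a few list members are not reported here. Positions and exon overlaps came from GENCODE vM21 and promoters from RefSeq. Figures and tables were made with Python 3.11.15 and matplotlib 3.10.9, and the code was tested on simulated data.

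Calls and list medians of NE against CTR were recomputed with no filter, with DESeq2 1.42.0, with library totals and with median-ratio factors. Further fits used at least 10 counts in every library, the NE and CTR libraries alone, a replicate block and limma 3.58.1 voom with sample quality weights. Each NE and CTR library was left out in turn, and, added after seeing the data, offsets were fitted to gene length. Calls were also counted at a log2 difference of at least 1. Interval counts, for the fit to 9 libraries, were recomputed with all of these fits but voom. TDE against NE was recomputed only with DESeq2 and the replicate block, and TDE against CTR was not recomputed.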

Additional observations from a re-analysis of the deposited data

How the results depend on the processing

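With all 9 libraries, the count of called genes stayed at 0 under every alternative except DESeq2 (3), voom with sample quality weights (18) and the fits with a library left out, which gave 0 to 3, the 3 being without CTR_1. Without CTR_1 the 3 calls (Arg1, Ak4, Egln3) were made again with library totals, median-ratio factors, at least 10 counts in every library and a log2 difference of at least 1. The count was 16 with DESeq2, 22 with no filter on low counts, 13 with offsets fitted to gene length, 5 with voom and 0 with the NE and CTR libraries alone. It ran from 2 to 10 with a further library left out, the 10 being without NE_3, and where 1 CTR library remained it was assumed to vary like the other groups. The cause of these differences was not tested. The number of genes with an interval within 1 log2 unit of 0 was 7645 with 9 libraries, 6395 to 9499 under the other settings and 5951 to 12213 with a library left out, the highest being without CTR_1.

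The replicate numbers in the names of the libraries do not pair them by any label, and the deviations of same-numbered NE and CTR libraries from their group means correlated at -0.45, 0.24 and -0.66. With the replicate number as a block, 0 genes were called with 9 libraries and 0 without CTR_1, so that Arg1, Ak4 and Egln3 were not among the calls, 6934 genes had an interval within 1 log2 unit, and 13 of the 22 genes set against TDE were called instead of 15.

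Library totals alone moved the median difference of all genes from 0.00 to 0.12 with 9 libraries. The medians of the HIF, sterol, interferon and NF-kB lists kept their sign in 14 of 14 alternatives without CTR_1 and in 15 of 15 with it. So did those of other lists, among them costimulation, class II, vesicle uptake and fatty acid synthesis, and every alternative refits the same libraries. The medians of the dendritic cell, fibroblast and class I lists and of the genes the study names crossed 0 in at least 1. No call changed direction. Genes of low level had the widest intervals. Without CTR_1 the median half-width was 0.866 under 5 CPM, and a difference of 1 log2 unit would have passed alone for 0 of 4950 such genes. The part of depth in this was not tested.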
